A study of Mus musculus with 12 samples.

Results

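The Dbx, Barx and Pou3f genes of the mouse were described together with *Pantr1*, a noncoding RNA gene beside *Pou3f3*. The 9 genes (*Dbx1*, *Dbx2*, *Barx1*, *Barx2*, *Pou3f1*, *Pou3f2*, *Pou3f3*, *Pou3f4* and *Pantr1*) were taken by name from the 54532 genes of the deposited table. They were chosen by their normalised counts in the comparison of the 2 groups below, which was already known. The differences of these genes between those groups are therefore given as a description, with no test. Of the 9, 5 reached a normalised count of 10 in at least 6 of the 12 libraries and entered the fit over 16733 genes. *Dbx1*, *Barx2*, *Pou3f2* and *Pou3f4* did not.

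The libraries came from limb mesenchyme of E14.5 mouse embryos, sorted by fluorescence. In the iCreb5 group (6 libraries), Prrx1-Cre had switched on a Rosa26 allele that encodes HA-tagged bovine Creb5 and, behind an internal ribosome entry site, GFP. In the tdTomato group (6 libraries), the same Cre had switched on a Rosa26 allele that encodes tdTomato, a red fluorescent protein. All 12 libraries therefore carried Prrx1-Cre, which acts in limb mesenchyme and what descends from it, and an activated Rosa26 allele; none was free of Cre. Creb5 is a transcription factor of the CREB/ATF family, and the comparison addressed what its forced expression does to gene expression in these cells. The groups also differed in the Rosa26 allele and in the fluorescent protein, and these cannot be told apart from Creb5 here. Litter 3 gave 3 libraries a group (3a, 3b and 3c), and litters 4, 5 and 6 gave 1 each. Batch labels changed with the litter, and batch and litter cannot be told apart. The design text speaks of 6 litters, and the labels of these libraries name 4. Whether a library came from 1 embryo or from several was not given in the sources used here, and the p-values below measure the spread between these libraries.

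Dbx and Barx proteins are homeobox transcription factors of the NK-like class. Dbx genes are known from progenitors of spinal interneurons, and Barx genes from mesenchyme of the stomach, face and teeth and from muscle precursors. Pou3f proteins carry a POU-specific domain beside a POU homeodomain, bind DNA together with Sox partners, and are best known from neurons, Schwann cells, kidney and inner ear. *Pantr1* is a long intergenic noncoding RNA known from the developing brain, where it is expressed beside its neighbour *Pou3f3*.

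With M for 1000000, the iCreb5 libraries held 21.6 to 49.2 M reads recovered from the normalised counts (median 29.1 M), and the tdTomato libraries 9.02 to 53.3 M (median 23.2 M). A count of 3 reads was worth between 1.48 and 8.38 normalised counts, depending on the library, and this bounds what can be said of the weakest genes. *Creb5* itself averaged 2799 ± 214 normalised counts in the iCreb5 libraries and 1803 ± 299 in the tdTomato libraries (SD, n = 6 each). It rose by 0.65 ± 0.12 on the log2 scale (SE; limma with Benjamini-Hochberg adjustment over all genes tested, adjusted p = 0.00219). Litters 4 to 6 alone gave 0.52, with an adjusted p of 0.0501. Whether this count includes reads of the bovine transgene was not given in the sources used here. *Prrx1* measured 4158 ± 575 in iCreb5 and 4986 ± 943 in tdTomato (log2 difference -0.25, adjusted p = 0.352). The limb mesenchyme markers summed to between 20268 and 24168 in iCreb5 and between 21390 and 27282 in tdTomato, and 1 of the 8, *Tbx4*, rose, by 0.54 (adjusted p = 0.033), a call lost in 11 of 25 alternatives.

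The stretches before the starts of *Pou3f3* and *Barx1* are shown because both genes had lower counts in iCreb5 and because Creb5 belongs to a family that binds the cAMP response element (CRE, TGACGTCA). They come from the RefSeq promoter table for GRCm38.p6 (mm10), which held 6 of the 9 genes; *Pantr1*, *Barx2* and *Pou3f1* were not among them. Both lie on the plus strand, at chr1:42695518-42695767 and chr13:48662786-48662997, outside the exons of the GENCODE annotation. Capitals mark TGACG, the core that is also contained in the CRE.

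Pou3f3: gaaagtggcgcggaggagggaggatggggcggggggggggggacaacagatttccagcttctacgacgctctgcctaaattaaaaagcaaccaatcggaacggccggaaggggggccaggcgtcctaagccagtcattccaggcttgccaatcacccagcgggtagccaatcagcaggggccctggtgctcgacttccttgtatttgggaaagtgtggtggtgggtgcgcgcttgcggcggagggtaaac

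Barx1: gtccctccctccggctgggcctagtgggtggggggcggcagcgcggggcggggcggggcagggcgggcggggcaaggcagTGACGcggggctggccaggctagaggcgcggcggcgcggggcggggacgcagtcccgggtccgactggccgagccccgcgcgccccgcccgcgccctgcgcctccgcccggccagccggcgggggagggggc

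The CRE, its core TGACG and the AP-1 site TGACTCA were searched on both strands in the 250 bases before each RefSeq start. Among the 6 genes with a sequence, the search matched only the core in *Barx1*, on the plus strand and 170 bases before the RefSeq start. *Dbx2*, *Dbx1*, *Pou3f2*, *Pou3f3* and *Pou3f4* held none of the 3 motifs in this window. The *Dbx2* window lay inside the *Dbx2* gene as GENCODE annotates it, which runs to 95655960. The sequence before that annotated gene was therefore not searched. The windows of *Dbx1*, *Barx1* and *Pou3f4* also overlapped exons of their own gene, with 236, 212 and 151 bases outside exons. Of all 32851 promoters in the table, 1.55% held the CRE, 17.8% its core and 4.46% the AP-1 site. The GC content was 60.8% in the *Pou3f3* stretch and 85.4% in the *Barx1* stretch.

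In the iCreb5 libraries, *Dbx2* was the most abundant of the 9 genes and stood 11.5-fold above its tdTomato level. *Barx1*, *Pou3f3* and *Pantr1* lay 2.96-fold, 6.09-fold and 5.20-fold below theirs. *Pou3f1* differed less and its groups overlapped, and the other 4 genes were scarce and not in the fit. A fold here is a ratio of geometric means of the normalised count plus 1. Of the 5 genes in the fit, 4 had groups that did not overlap, as did 4.75% of all 16733 genes. In 1 of the 4 the iCreb5 libraries were the higher ones, as in 2.83% of all genes, and in 3 the lower ones, as in 1.92%. By an adjusted p under 0.05, 1 of the 5 counted as higher, as did 3.87% of all genes, and 3 as lower, as did 2.85%. These are the values by which the genes were chosen, and nothing is read from the counts.

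**Figure D1:**
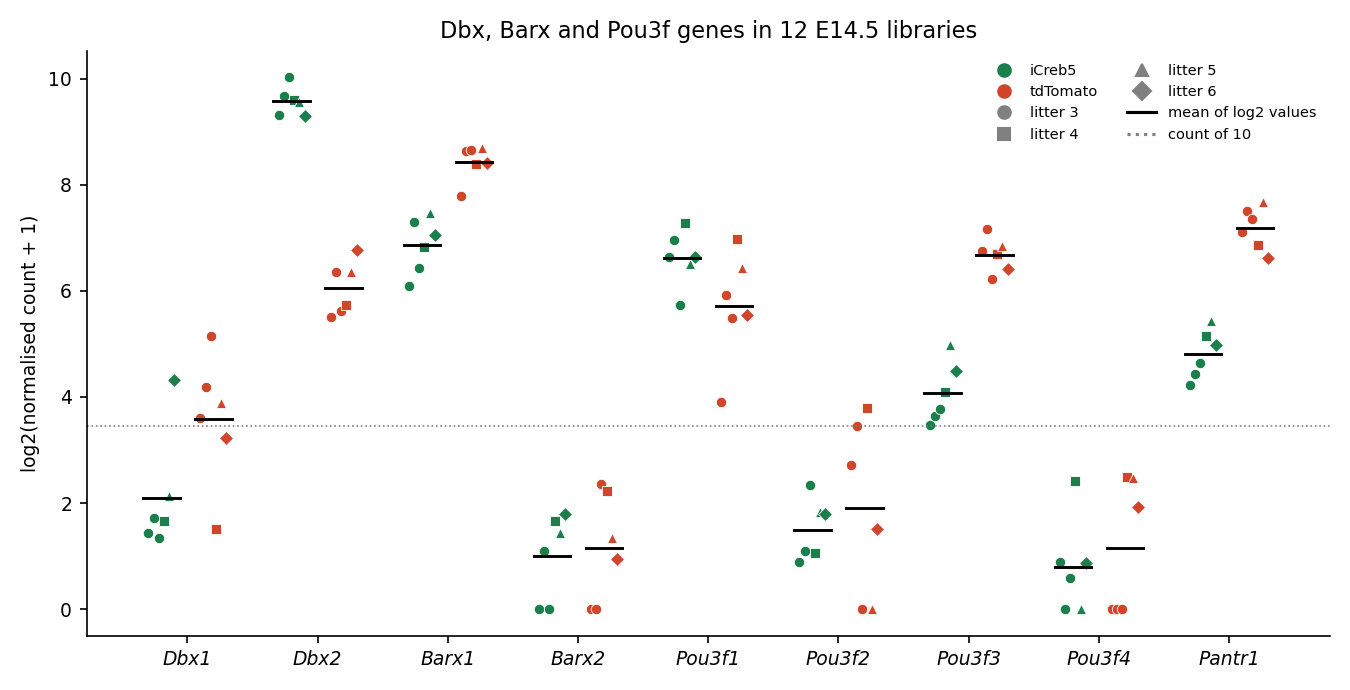
Each point is 1 library and gives log2(normalised count + 1) of 1 gene, with iCreb5 left of tdTomato, litters by symbol, and bars for the means of the log2 values. The iCreb5 points lie above all tdTomato points for *Dbx2* and below all of them for *Barx1*, *Pou3f3* and *Pantr1*; *Barx2* and *Pou3f4* stay under the dotted line at a count of 10.

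*Dbx2* (ENSMUSG00000045608; mm10 chromosome 15, 95623563 to 95655960, minus strand) encodes a homeobox factor of the progenitor zone around the middle of the spinal cord. Its normalised count ran from 629 to 1042 in iCreb5 libraries, with a median of 764. In tdTomato libraries it ran from 44.7 to 107.8, with a median of 66.5. The lowest iCreb5 library, 6, thus stood well above the highest tdTomato library, 6d, and both came from litter 6. The log2 difference was 3.53 ± 0.22 (SE, n = 6 each), from group means of 776 ± 151 in iCreb5 and 69.0 ± 24.8 in tdTomato (SD). The relative spread between libraries was 19.5% in iCreb5 and 36.0% in tdTomato (SD as a percentage of the mean). *Dbx2* rested on 5902 recovered reads in iCreb5 and 440 in tdTomato.

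*Dbx1* (ENSMUSG00000030507; chromosome 7, 49631499 to 49636849, minus strand), which marks the spinal progenitors next to the Dbx2-only ones and directs their interneuron fate, was scarce. It had between 1.52 and 18.9 normalised counts in iCreb5 (median 2.23) and between 1.84 and 34.3 in tdTomato (median 12.4). The groups overlapped, and 1 iCreb5 library and 4 tdTomato libraries reached a count of 10. Library 6 held 18.9 of the iCreb5 counts, against 3.39 or less in the other iCreb5 libraries. All reads of *Dbx1* came to 36 in iCreb5 and 84 in tdTomato, so its mean of 4.99 ± 6.85 in iCreb5 and 14.4 ± 11.0 in tdTomato rests on few reads, and *Dbx1* did not share the high iCreb5 counts of *Dbx2*.

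*Barx1* (ENSMUSG00000021381; chromosome 13, 48662998 to 48666507, plus strand) is known for patterning stomach mesenchyme and the mesenchyme under the molar teeth. Its count ran from 67.4 to 176.5 in iCreb5 (median 123) and from 220.6 to 412 in tdTomato (median 368). Every iCreb5 library was below every tdTomato library, the nearest being iCreb5 5 and tdTomato 3a. The log2 difference was -1.56 ± 0.24 (SE), from 122 ± 41.6 in iCreb5 and 351 ± 72.3 in tdTomato (SD, n = 6 each). *Barx2* (ENSMUSG00000032033; chromosome 9, 31846044 to 31913462, minus strand), which acts in muscle precursors, had 8 reads over all iCreb5 libraries and 9 over all tdTomato libraries. It was at 0 in 2 libraries of each group, and a difference was not detectable at this depth.

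Among the Pou3f genes, *Pou3f3* (ENSMUSG00000045515; chromosome 1, 42695768 to 42703176, plus strand), a factor of upper-layer cortical neurons and kidney tubules, had the widest gap between the groups. It ran from 10.1 to 30.5 normalised counts in iCreb5, with a median of 14.4. In tdTomato it ran from 74.0 to 142, with a median of 104. The groups were separated by a wide margin, although the iCreb5 counts rested on only 124 reads, against 657 in tdTomato. The log2 difference was -2.61 ± 0.30 (SE), from 17.1 ± 7.75 in iCreb5 and 104 ± 23.7 in tdTomato (SD, n = 6 each). Within the iCreb5 group the 3 libraries of litter 3 held 10.1 to 12.6 counts and those of litters 4 to 6 held 16.2 to 30.5. In tdTomato the 2 sets of litters overlapped, at 74.0 to 142 in litter 3 and 84.6 to 114 in litters 4 to 6.

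*Pantr1* (ENSMUSG00000060424; chromosome 1, 42590782 to 42694842, minus strand, annotated as a long intergenic noncoding RNA) starts 925 bases before *Pou3f3* and is transcribed away from it on the opposite strand. It had between 17.7 and 42.4 normalised counts in iCreb5 (median 27.1) and between 97.6 and 204 in tdTomato (median 149). As for *Pou3f3*, the groups did not overlap, and the 3 lowest iCreb5 libraries were those of litter 3. The log2 difference was -2.38 ± 0.26 (SE), from 28.2 ± 9.31 in iCreb5 and 149 ± 40.2 in tdTomato (SD, n = 6 each). The ratio of *Pantr1* to *Pou3f3* counts was 1.73 ± 0.283 in iCreb5 (range 1.39 to 2.13) and 1.47 ± 0.425 in tdTomato (range 1.13 to 2.19), so the ratios of the 2 groups overlapped while both genes differed about 5-fold to 6-fold. Reads from overlapping or antisense transcripts at this locus cannot be assigned here, since the use of strand in counting was not given in the sources used here. *Pantr2*, named here after its values were seen, had 2.79 counts or less in every library.

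**Figure D2:**
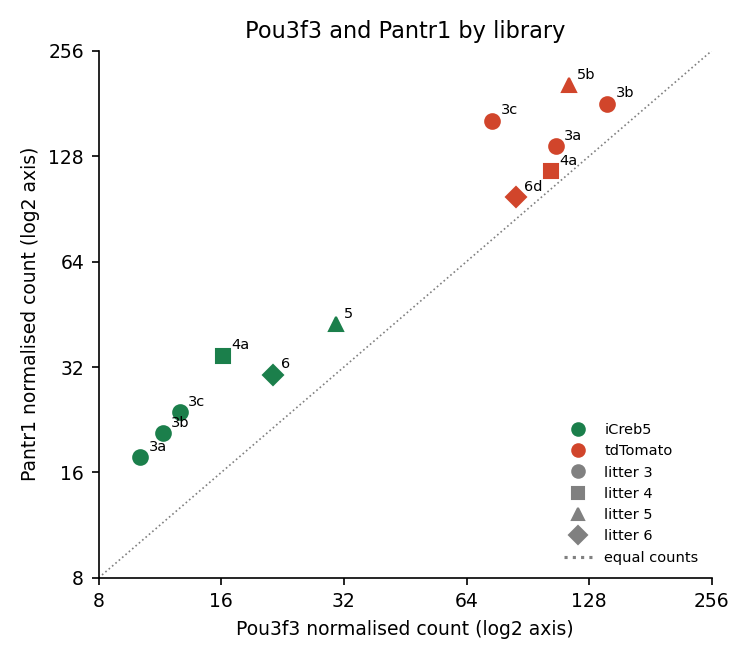
Each point is 1 library, with the *Pou3f3* count on the horizontal axis and the *Pantr1* count on the vertical axis, both logarithmic, and the dotted line marks equal counts. The iCreb5 libraries lie at the lower left, with 3a lowest and 5 highest in both genes and 4a and 6 in opposite orders, and the tdTomato libraries form a cloud at the upper right, with 3c and 5b farthest above the dotted line.

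Whether *Pou3f3* and *Pantr1* varied together among libraries of the same group was tested separately from the difference between the groups. Over the 6 iCreb5 libraries, Pearson's r was 0.927 (exact two-sided permutation p = 0.0111, 0.0222 adjusted over the 2 groups) and Spearman's rho was 0.943 (exact p = 0.0167, adjusted 0.0333). The smallest p this design allows for Pearson's r was 0.00278. Without the 2 libraries farthest from the median of *Pou3f3*, 5 and 6, r was 0.999. Leaving out single iCreb5 libraries gave r between 0.868 and 0.987, and the adjusted exact p missed 0.05 without 3a (0.100), 3b (0.0667), 3c (0.100) or 5 (0.133). Over the 6 tdTomato libraries, r was 0.459 (exact permutation p = 0.364, also adjusted) and rho was 0.60 (exact p = 0.242). Without tdTomato 3c and 3b, the libraries farthest from the median, r was 0.874. The p-value in tdTomato does not show that the genes varied independently there, and whether r differed between the groups was not tested. Litters 4, 5 and 6 have 1 library a group and litter 3 has 3, too few to give r within a batch, so covariation and batch cannot be told apart.

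*Pou3f1* (ENSMUSG00000090125; chromosome 4, 124656807 to 124660655, plus strand), which times the differentiation of Schwann cells and is also expressed in epidermis, had 52.1 to 155 normalised counts in iCreb5 (median 98.6). In tdTomato it had 13.96 to 126 (median 52.4). The ranges overlapped over most of their length, and the lowest value of all came from tdTomato 3a, the shallowest library. The log2 difference was 0.92 ± 0.42 (SE), from 103 ± 34.5 in iCreb5 and 62.3 ± 38.8 in tdTomato (SD, n = 6 each). Without tdTomato 3a it was 0.56. Of the 5 genes in the fit, *Pou3f1* alone was not called. The genes were chosen by this difference, so nothing is read from that.

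*Pou3f2* (ENSMUSG00000095139; chromosome 4, 22482780 to 22488366, minus strand), a neuronal factor, and *Pou3f4* (ENSMUSG00000056854; chromosome X, 110814280 to 110817207, plus strand), known from the mesenchyme around the inner ear, were scarce. *Pou3f2* had 0.843 to 4.05 counts in iCreb5 and 0 to 12.9 in tdTomato, from 17 reads in iCreb5 and 38 in tdTomato. It was at 0 in 2 tdTomato libraries and passed 10 only in tdTomato 4a. *Pou3f4* had 0 to 4.31 counts in iCreb5 and 0 to 4.59 in tdTomato, from 7 reads in iCreb5 and 11 in tdTomato. It was at 0 in 2 iCreb5 libraries and in the 3 tdTomato libraries of litter 3. The groups overlapped for both genes and the reads were few, and in bulk samples fewer cells that express a gene and less RNA per cell cannot be told apart.

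Divided by exon length in kilobases, which puts the genes on a common scale, *Dbx2* led in iCreb5 with 224 normalised counts per kb. It was followed by *Barx1* (87.1), *Pou3f1* (26.8) and *Pantr1* (6.34), and none of these 4 levels overlapped between libraries with the next one down, except that *Pantr1* overlapped *Dbx1* (2.39). *Pou3f3* stood at 2.30 counts per kb in iCreb5, and *Barx2* (0.632), *Pou3f4* (0.369) and *Pou3f2* (0.362) were not separable from each other. In tdTomato the order by counts per kb began with *Barx1* (251), well clear of the rest. *Pantr1* (33.5), *Dbx2* (19.9), *Pou3f1* (16.2), *Pou3f3* (14.03) and *Dbx1* (6.90) followed, each overlapping the next. *Pou3f2* (0.901), *Barx2* (0.867) and *Pou3f4* (0.680) were again lowest. No stretch of 50 bases was shared between the annotated transcripts of any of the 9 genes, so an exact match of that length to a transcript of 1 of them fitted none of the others.

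The difference between the groups was then compared between litter 3 and litters 4 to 6, a contrast that the choice of genes did not use. For *Dbx2* the log2 difference was 3.85 ± 0.29 (SE) in litter 3 and 3.20 ± 0.28 in litters 4 to 6. For *Pou3f3* it was -3.08 ± 0.39 in litter 3 and -2.13 ± 0.39 in litters 4 to 6, and for *Pantr1* it was -2.89 ± 0.31 in litter 3 and -1.87 ± 0.34 in litters 4 to 6. All 5 genes in the fit thus had the larger estimate in litter 3. *Creb5* itself had this order too (0.78 in litter 3 and 0.52 in litters 4 to 6), and *Sox10* the opposite (-1.60 and -2.07). The share of all genes with this order was not counted, and nothing is read from it for the 5 genes. No interaction passed: it was 0.65 for *Dbx2* (95% interval -0.28 to 1.57, limma adjusted p = 0.842), -0.95 for *Pou3f3* (-2.09 to 0.19, adjusted p = 0.838) and -1.02 for *Pantr1* (-2.04 to 0.00, adjusted p = 0.823). *Barx1* gave -1.75 ± 0.36 in litter 3 and -1.37 ± 0.22 in litters 4 to 6, with an interaction of -0.38 (-1.38 to 0.62, adjusted p = 0.910). *Pou3f1* gave 1.34 ± 0.55 in litter 3 and 0.49 ± 0.33 in litters 4 to 6, with an interaction of 0.85 (-0.75 to 2.46, adjusted p = 0.871). Over all 16733 genes limma called 0 interactions (0%) at an adjusted p under 0.05, while 1012 genes had an unadjusted p under 0.05. It called 1 without iCreb5 3b and 2 without tdTomato 3c.

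**Figure D3:**
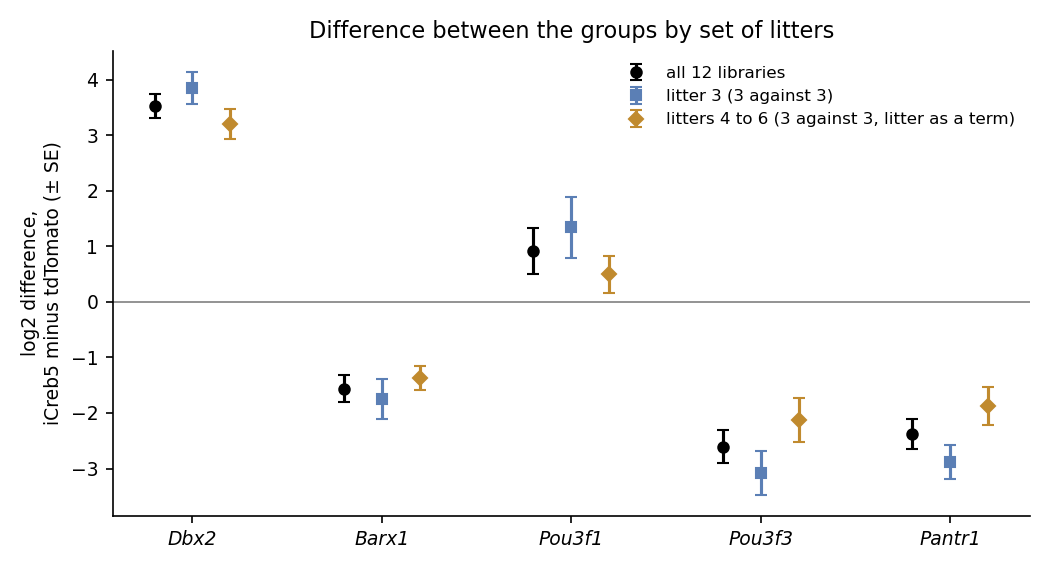
Log2 difference of iCreb5 minus tdTomato (± SE) for the 5 genes in the fit, over all 12 libraries, in litter 3 alone and in litters 4 to 6 with litter as a term. Each gene keeps its sign in both sets of litters, and each estimate from litter 3 lies farther from 0 than that from litters 4 to 6. The share of all genes with this order was not counted.

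The genes beside the 9 on the chromosome were examined next, taking the 3 nearest tested genes on each side of each. Of 48 such neighbours outside the group, 3 rose and 1 fell, or 8.33%, against 6.72% of all genes tested called in either direction. *Nell2*, which encodes a secreted glycoprotein of neurons, lies 95.0 kb from *Dbx2* and is its nearest tested neighbour on that side. Its normalised count ran from 2246 to 5307 in iCreb5 and from 364 to 662 in tdTomato. The groups did not overlap, and iCreb5 5 was the lowest of the iCreb5 libraries. *Nell2* rose by 2.89 ± 0.20 on the log2 scale (limma adjusted p = 4.24e-07), from 4208 ± 1222 in iCreb5 and 553 ± 103 in tdTomato (SD, n = 6 each), and all 25 alternatives gave between 2.74 and 3.17. *Tmem117*, the next tested gene on the *Nell2* side of *Dbx2*, differed by 0.42 (adjusted p = 0.170), and *Ano6*, 134.9 kb away on the other side, by 0.17 (adjusted p = 0.848).

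The remaining calls near the 9 genes were farther away and less stable. *Nell1*, a secreted factor of bone formation and a relative of *Nell2*, lies 338 kb from *Dbx1*. It rose by 0.81 (adjusted p = 0.0175), with 424 ± 103 counts in iCreb5 and 241 ± 55.6 in tdTomato (SD, n = 6 each). The adjusted p was 0.0503 in litter 3, 0.141 in litters 4 to 6 and 0.0848 without tdTomato 3a and 5b. *Il1rl1*, which encodes the receptor of interleukin 33 and lies 2125 kb from *Pantr1*, rose by 1.80 (adjusted p = 0.0149), and 4 of 24 alternatives ended the call. *Slc9a2*, a sodium-proton exchanger gene 1822 kb from *Pantr1*, fell by 1.41 on the log2 scale (adjusted p = 0.0329). Its call was lost in 12 of 25 alternatives. The limma adjusted p was 0.230 in litters 4 to 6, 0.0866 with litter 3 averaged and 0.0735 with no filter. The call was also lost without iCreb5 3a, 3b, 3c or 6 and without tdTomato 3a, 3c, 4a or 6d. The adjusted p was up to 0.083 there. *Mrps9*, the nearest tested gene on the far side of *Pou3f3*, at 148 kb, differed by -0.02 (adjusted p = 0.949).

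**Figure D4:**
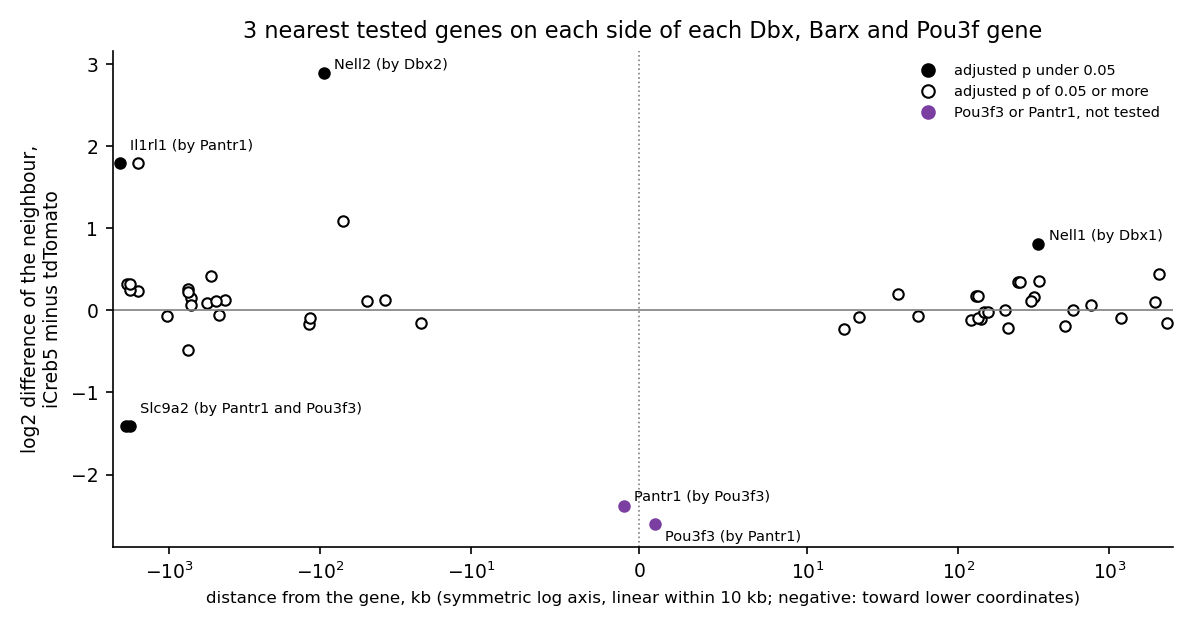
Log2 difference (iCreb5 minus tdTomato) of the nearest tested neighbours against their distance in kb, on a symmetric logarithmic axis. *Nell2* stands alone above 2.5 toward the left, *Pou3f3* and *Pantr1* mark each other near 0, and most open circles lie between -0.5 and 0.5.

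Related genes were counted on lists drawn up from general knowledge, but with earlier results of these data known. They are set beside a median log2 difference of 0.00 over all genes tested. The calls on these lists, and on the lists of cell type markers, are therefore no independent test of the lists. Of the 11 other POU genes, 5 were tested, 1 rose, and the median difference was 0.24. None fell by limma, edgeR or DESeq2, and none was lower at an unadjusted p under 0.05. The riser was *Pou2f2*, a POU factor of B lymphocytes, with 36.6 ± 8.99 counts in iCreb5 and 10.7 ± 8.06 in tdTomato (SD, n = 6 each; log2 difference 2.06, limma adjusted p = 0.0224). Its adjusted p missed the threshold without iCreb5 3b (0.0588), with no filter on low counts (0.0565), in litter 3 (0.190), in litters 4 to 6 (0.108) and without iCreb5 5 and 6 (0.0692). *Pou2f1*, a widely expressed POU gene, differed by 0.07 and *Pou6f1* by 0.24 (adjusted p = 0.918 and 0.728). Leukocyte markers moved with *Pou2f2*: 9 of the 10 rose, none was at 0 in all libraries, and they summed to between 1718 and 7362 in iCreb5 and between 441 and 772 in tdTomato. The part of those cells in the *Pou2f2* difference was not tested.

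Of the 43 other NK-like homeobox genes, 14 were tested, none rose, 3 fell, and the median difference was -0.36; by unadjusted p under 0.05 the counts were 0 higher and 5 lower. edgeR and DESeq2 each called 0 higher and 4 lower. The 3 that fell were Dlx genes, which act in limb patterning and in cartilage and bone. *Dlx5* had 318 ± 106 counts in iCreb5 and 779 ± 112 in tdTomato (log2 difference -1.33, adjusted p = 0.000289). *Dlx3* had 129 ± 28.5 in iCreb5 and 357 ± 99.7 in tdTomato (-1.45, adjusted p = 0.000289). *Dlx6*, scarce at 6.40 ± 5.23 in iCreb5 and 28.1 ± 11.8 in tdTomato (SD, n = 6 each), differed by -2.16 (adjusted p = 0.0111), and its call was lost in litters 4 to 6 (0.360), with litter 3 averaged (0.141) and without tdTomato 3a and 5b (0.0661). *Msx1*, the most abundant of the list, differed by -0.60 and missed the threshold (adjusted p = 0.171), though with litter as a replicate block its adjusted p was 0.0386. *Barhl2*, *Nkx1-1*, *Nkx2-1*, *Nkx2-6* and *Noto* were at 0 in every library.

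The 14 transcription factor genes of the spinal domains beside the Dbx domain included 5 that were tested. limma called none of them in either direction, none had an unadjusted p under 0.05, and edgeR and DESeq2 called none. Their median difference was -0.02. *Irx3* and *Irx5*, homeobox genes of the neural tube and the limb, differed by -0.02 and -0.08 (adjusted p = 0.984 and 0.878), and *Olig2* and *Gsx1* were at 0 in every library. None of these spinal genes passed the test in the libraries where *Dbx2* was high.

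Of the 9 partner and target genes reported for Pou3f factors, 7 were tested, none rose and 1 fell, with a median difference of 0.13; 0 were higher and 2 lower by unadjusted p under 0.05, and edgeR and DESeq2 each called 0 higher and 1 lower. *Sox10*, the partner in Schwann cells, had 49.8 ± 20.1 counts in iCreb5 and 169 ± 45.8 in tdTomato (SD, n = 6 each; -1.84, adjusted p = 0.00242). The groups did not overlap, at 15.1 to 72.3 in iCreb5 and 101 to 214 in tdTomato. *Sox11* and *Nes*, neural precursor genes with wide embryonic expression, differed by 0.23 and 0.19 (adjusted p = 0.396 and 0.711). *Sox10* also stands on the Schwann cell and melanoblast marker list. Of its 9 markers 7 were tested, *Sox10* alone fell, none was at 0 in all libraries, and the markers summed to between 211 and 437 in iCreb5 and between 446 and 570 in tdTomato. Whether these cells bear on the *Pou3f3* and *Pantr1* counts was not tested.

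Of the 5 genes reported downstream of Barx factors, all were tested, 1 rose and 1 fell, with a median difference of 0.17. *Sfrp2*, a secreted Wnt antagonist, had 22436 ± 2126 counts in iCreb5 and 15438 ± 1505 in tdTomato (SD, n = 6 each; 0.54, adjusted p = 0.00216). *Col2a1*, the main collagen of cartilage, differed by -1.17 (adjusted p = 0.00666). *Sfrp1* differed by 0.47 and missed the threshold (adjusted p = 0.0818), but passed with litter as a replicate block (0.0100), without iCreb5 5 (0.0197) and in DESeq2 (0.0307). *Ncam1*, a cell adhesion gene, differed by 0.17 (adjusted p = 0.414).

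**Figure D5:**
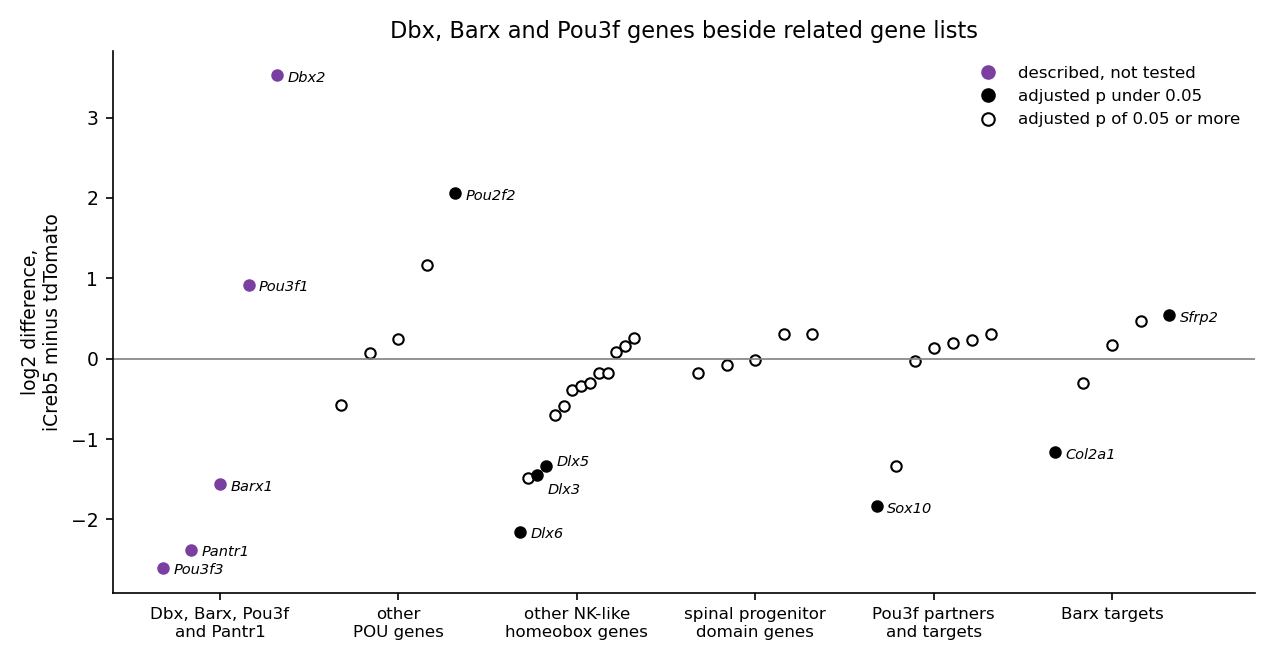
Log2 difference (iCreb5 minus tdTomato) of the tested genes of each list, filled where the adjusted p was under 0.05, with *Pantr1* and the 4 Dbx, Barx and Pou3f genes in the fit in purple at the left and not tested. *Dbx2* at 3.53, *Pou3f3* at -2.61 and *Pantr1* at -2.38 lie outside the range of the 5 lists plotted beside them. The tested spinal genes lie close to 0. The genes in purple were chosen by this difference, so nothing is read from where they stand.

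Neuron markers were counted because Dbx and Pou3f genes are best known from the nervous system. Of 10 such markers 8 were tested, 2 rose and 1 fell, none was at 0 in all libraries, and they summed to between 8206 and 10692 in iCreb5 and between 2575 and 4136 in tdTomato. *Isl1*, a homeobox gene of motor neurons and of hindlimb mesenchyme, had 864 ± 118 counts in iCreb5 and 136 ± 41.2 in tdTomato (2.69, adjusted p = 3.44e-07). *Nefl*, a neurofilament gene, had 6086 ± 1205 in iCreb5 and 963 ± 149 in tdTomato (SD, n = 6 each; 2.65, adjusted p = 3.52e-08), and it made up most of the sum in iCreb5. In tdTomato it did not, and *Gap43* averaged more there (1867 ± 444). *Stmn2*, a gene of growing axons, differed in the other direction, by -1.65 (adjusted p = 0.000283), and *Gap43* by 0.05 (adjusted p = 0.921). *Elavl3* and *Rbfox3* averaged under 10 counts. The endothelial markers summed to between 1247 and 3629 in iCreb5 and between 957 and 1404 in tdTomato, with 5 of 6 called higher and none at 0 in all libraries. The calls of *Tie1*, *Cdh5* and *Kdr* among them were lost in 11 to 14 of 25 alternatives. Of the epidermal and skeletal muscle markers, 8 of 8 and 8 of 9 were tested, limma, edgeR and DESeq2 called none, and none had an unadjusted p under 0.05. The part of any of these cells in the Dbx, Barx and Pou3f counts was not tested.

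For each of *Dbx2*, *Barx1* and *Pou3f3*, the 5 genes most like it within the groups were found by Pearson's r over the 12 libraries after each group's mean of log2(count + 1) was subtracted, among 12411 genes with a mean count of at least 50. These values are descriptive, since they are the highest of many and share library depth and litter. The genes nearest to *Dbx2* were *Rad51ap1* (r = 0.868), *Angptl4* (0.862), *Dhodh* (0.838), *Ciao1* (0.836) and *Irx5* (0.832). *Barx1* was followed by *Smim5* (0.913), *Zfand2b* (0.910), *Cops7a* (0.908), *Tsr3* (0.907) and *Mbp* (0.903). *Pou3f3* was followed by *Mfap5* (0.936), *Dusp1* (0.924), *Tbrg1* (0.918), *Pithd1* (0.917) and *Eif3j1* (0.914), while its neighbour *Pantr1*, at 0.757, ranked 361st.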

How the data were processed

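Gene expression was measured by sequencing polyA RNA from 12 libraries. The deposited table holds normalised counts per gene, a signal that the authors made, as the values show, by scaling each library's gene counts by its own factor. With the factor undone, 100% of values were whole numbers of reads (tolerance 1e-06). FastQC, STAR, Salmon, DESeq2 and the build mm10 are named without versions in the submitters' processing notes; strand use was not given in the sources used here. A P0 table with 8 columns that match no labelled sample was not used here.

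The test was limma 3.58.1 under R 4.3.3 (trend, two-sided) on log2(count + 1). Genes entered it with a count of 10 or more in 6 or more of the 12 libraries, with Benjamini-Hochberg adjustment over all genes tested and a threshold of 0.05. Alternatives on the recovered reads used edgeR 4.0.16 and DESeq2 1.42.0. The steps were also run on simulated data drawn without litter or batch effects, and the outcome is not given here. Exact permutation tests used scipy 1.17.1. Gene models came from GENCODE, and 54409 of 54532 IDs had a symbol. The worth of 3 reads given as a floor covers counting error only, and the 95% intervals of the interactions rest on the spread between libraries.

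The members of the gene group and all lists were chosen with earlier results of these data known. Genes named are the 9, *Creb5* and *Prrx1*, from each list up to 6 called genes and the 2 most abundant not called, every called neighbour, and the 5 genes most like *Dbx2*, *Barx1* and *Pou3f3*; any other named gene was chosen after its values were seen. Litter numbers come from the labels and pair the libraries. Deviations from the group means correlated between -0.24 and 0.35 for libraries of the same litter across groups, and between -0.26 and 0.22 otherwise. No 2 libraries of a group agreed within sampling noise (chi-square per degree of freedom 16.8 or more).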

Additional observations from a re-analysis of the deposited data

Results flagged for a closer look

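In 144 groups of 6 libraries examined, 8 held a library whose gap to its nearest neighbour was wide for the group's range. Chance gives about 1 in 20 such groups. The 8 are near that share, and they are listed as a description. *Dbx1* and *Pou3f4* are among them: iCreb5 6 had 18.9 counts of *Dbx1*, with the other iCreb5 libraries at 1.52 to 3.39, and iCreb5 4a had 4.31 counts of *Pou3f4*, with the others at 0 to 0.843. Library tdTomato 5b stood apart in 4 genes. It had 898 counts of *Msx2* (others 290 to 460), 666 of *Nes* (311 to 397), 399 of *Epcam* (210 to 271) and 718 of *Myog* (307 to 454). *Perp* was at 52.1 in iCreb5 3c, with the others at 169 to 239, and *Tie1* was at 28.0 in iCreb5 5, with the others at 214 to 286.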

How the results depend on the processing

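Over 25 alternatives the log2 difference of *Dbx2* lay between 3.20 and 3.85, of *Barx1* between -1.76 and -1.37, and of *Pou3f1* between 0.49 and 1.34, and none of the values named in the report that had passed the threshold changed sign. *Pou3f3* and *Pantr1* moved by more than the spread between replicates: -3.08 and -2.89 in litter 3 alone, and -2.13 and -1.87 in litters 4 to 6. Of all genes, 648 were higher and 477 lower. With litter as a replicate block these were 859 and 728, with litter 3 averaged in the block 511 and 402, in litter 3 alone 395 and 292, and in litters 4 to 6 (block) 320 and 368. edgeR called 641 and 471, and DESeq2 922 and 715. Scaling the libraries to equal totals moved the share of higher calls to 67.7%, against 57.6%, with 799 higher and 382 lower. Leaving out 1 library gave 484 to 705 higher, 369 to 511 lower and 0 to 2 interactions. Among other POU genes, the count of those that rose was 0 with no filter and in litter 3 alone. The count was also 0 in litters 4 to 6 and without iCreb5 5 and 6, and 0 to 1 with 1 library left out. Requiring a count of 10 in all 12 libraries also gave 0, because that filter removed *Pou2f2*, the 1 gene that rose. Among Barx targets the count of those that rose was 2 under the block, under the averaged block, without iCreb5 5 and 6 and in DESeq2. It was 1 to 2 with 1 library left out. The correlation of *Pou3f3* with *Pantr1* in iCreb5 lay between 0.868 and 0.987 with 1 library left out. The cause of these shifts was not tested. *Tmem117*, *Ano6* and *Mrps9* were not followed under the block. Among the other genes whose adjusted p the report gives, the block changed only the calls of *Msx1* and *Sfrp1*, given there. Depth limits *Barx2* (8 reads in iCreb5, 9 in tdTomato) and *Pou3f4* (7 and 11 reads). *Dbx1* and *Pou3f2* had too few libraries at a count of 10 to enter the fit.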
